A study of Mus musculus with 6 samples.

Results

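Elovl3 and its relatives are the enzymes that lengthen and desaturate fatty acids in the endoplasmic reticulum. Of 8 genes named for this group, 7 were listed among the 8941 genes of the tables, namely the elongases Elovl2, Elovl3, Elovl5 and Elovl6 and the desaturases Scd1, Fads1 and Fads2, and Elovl1 was not analysed here. Elovl3 was chosen by its disome level at ZT12, which lay farthest below that at ZT0 among all tested genes, so its levels are a description without a test. The other 6 genes were picked as fatty acid elongases or desaturases, with earlier results of these data known. They were tested in a fit over all genes.

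Liver was taken from male mice of the inbred strain C57BL/6JRj at an age of 11 to 12 weeks. The mice had been kept for 2 weeks under 12 h of light and 12 h of dark and were sampled at ZT0, ZT2 or ZT12, where zeitgeber time (ZT) counts hours from the onset of light, so that ZT0 opens the light phase and ZT12 the dark phase. No treatment or genetic change is named for any group. Each time point had 2 libraries made from pooled lysates of 2 mice. The labels do not say whether both libraries of a time came from separate pools, so p-values measure only the spread between these libraries, which may be technical, and the sources used here do not give feeding times. Cycloheximide held ribosomes in place in the lysates and RNase I trimmed unshielded RNA. A disome footprint is the piece of messenger RNA that a pair of stacked ribosomes shields from nuclease. The deposited unit is RPKM, reads per kilobase of coding sequence scaled by library, which allows levels of different genes to be compared per length.

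A disome level depends on how much messenger RNA is present, how often it is translated and how often ribosomes queue on it. Neither total RNA nor single-ribosome footprints were analysed here, so these parts cannot be told apart. In whole liver, fewer cells of a type and less RNA per cell cannot be told apart either. The identifiers of the tables were paired with symbols only for the 7 members, so the tissue label was not checked against liver markers, and the shares of hepatocytes and other cells in each library were not tested.

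As background, elongases carry out the condensing step that lengthens an acyl-CoA chain, and desaturases insert a double bond with electrons passed on by cytochrome b5. Elovl3 acts on saturated and monounsaturated very long chains and is known for a daily rhythm in mouse liver, and it is also made in brown fat and skin glands. Elovl6 lengthens palmitate towards stearate, and Scd1 turns these saturated chains into palmitoleate and oleate, a pair of steps that belong to lipogenesis. Fads2, Elovl5, Fads1 and Elovl2 act along the route from dietary linoleic and linolenic acid to arachidonic and docosahexaenoic acid.

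Recovered whole reads totalled 6346387 to 12322651 per library, with 67 to 144 reads for the median gene. ZT2 replicate 2 listed 250 genes at 0, the most of any library, and the replicates of ZT2 lay farther apart than those of the other times, with a median difference of 0.40 on the log2(RPKM + 1) scale against 0.19 at ZT0 and 0.27 at ZT12. Every member was well covered, with 348 reads as the lowest count (Elovl6 in ZT2 replicate 2) and 85863 as the highest (Scd1 in ZT2 replicate 1). Of all reads, the 7 members together held 0.938% and 1.14% in the ZT0 libraries, 1.59% and 0.853% in those of ZT2, and 0.479% and 0.499% in those of ZT12. Without Scd1, the remaining 6 held 0.299% and 0.313% in the ZT0 libraries, 0.238% and 0.241% in those of ZT2, and 0.0723% and 0.0863% in those of ZT12. Each sum contains Elovl3, so the lower sums at ZT12 partly follow from the low ZT12 level it was chosen for. Elovl3 alone held 0.210% in each ZT0 library, 0.132% and 0.156% in those of ZT2, and 0.00590% and 0.00595% in those of ZT12.

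The members lie on 4 chromosomes of GRCm38.p6, by RefSeq's gene table. Elovl3 spans chr19:46131897-46135694 and Scd1 chr19:44394450-44407709. Fads1 (chr19:10182877-10196874) and Fads2 (chr19:10062765-10101503) are next to each other among coding genes, with a gap of 81373 bp, and Fads3 follows Fads2 after 2651 bp. The other elongases are apart, with Elovl2 at chr13:41182382-41220403, Elovl5 at chr9:77917365-77984519 and Elovl6 at chr3:129532386-129638495. The RefSeq span of Elovl3 overlaps the gene Pitx3, and Scd1 has the related gene Scd4 as its nearest coding neighbour at 47706 bp. How the authors treated strand and reads mapping to several places is not given, so reads shared with such neighbours or copies were not tested. The coding lengths recovered from the tables were short for all 7 members, with 801 nt for Elovl6, 813 nt for Elovl3, 876 nt for Elovl2, 897 nt for Elovl5, 1065 nt for Scd1, 1332 nt for Fads2 and 1341 nt for Fads1.

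RefSeq promoter windows of 300 bases, 250 before and 50 after the start of the gene, were on hand for 4 members. They are shown for Elovl5, the member that passed the test, and for Elovl6 and Fads2, the members whose mean disome level was higher at ZT12 than at ZT0. Each is written 5′ to 3′ on the strand of its gene, and capitals mark matches to the motifs named after them. The Elovl5 window is chr9:77917115-77917414 (plus strand), that of Elovl6 is chr3:129532136-129532435 (plus strand) and that of Fads2 is chr19:10101454-10101753 (minus strand).
Elovl5: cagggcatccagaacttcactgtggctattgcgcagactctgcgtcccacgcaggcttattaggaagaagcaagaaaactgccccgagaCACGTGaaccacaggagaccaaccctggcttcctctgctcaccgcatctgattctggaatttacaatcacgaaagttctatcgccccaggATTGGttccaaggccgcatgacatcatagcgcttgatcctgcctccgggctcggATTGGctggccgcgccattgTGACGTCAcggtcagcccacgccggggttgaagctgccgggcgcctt
Elovl6: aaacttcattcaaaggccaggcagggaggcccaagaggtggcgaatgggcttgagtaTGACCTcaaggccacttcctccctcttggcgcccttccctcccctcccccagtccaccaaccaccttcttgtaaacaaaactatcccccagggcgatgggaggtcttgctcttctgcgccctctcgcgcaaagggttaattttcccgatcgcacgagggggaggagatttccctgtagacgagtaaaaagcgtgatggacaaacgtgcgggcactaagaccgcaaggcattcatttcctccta
Fads2: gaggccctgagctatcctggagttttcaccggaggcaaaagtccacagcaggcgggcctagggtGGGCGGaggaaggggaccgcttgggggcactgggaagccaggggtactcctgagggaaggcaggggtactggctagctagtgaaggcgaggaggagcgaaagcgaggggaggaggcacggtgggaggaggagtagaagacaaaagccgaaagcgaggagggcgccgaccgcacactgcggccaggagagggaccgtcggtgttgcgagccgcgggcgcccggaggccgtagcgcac
Both strands were searched for the E-box CACGTG, the D-box TTANGTAA, the sterol response element TCACNCCAC, the nuclear receptor core motif AGGTCA, the inverted CCAAT box ATTGG, the GC box GGGCGG and the cyclic AMP response element TGACGTCA, the last added after the Elovl5 window had been read. The Elovl5 window held an E-box starting at -161 relative to the gene start, inverted CCAAT boxes starting at -71 and -17, and a cyclic AMP response element starting at 4. Of all 32851 windows, 7.15% held the E-box, 37.4% the inverted CCAAT box and 1.79% the cyclic AMP response element. The Elovl6 window held 1 nuclear receptor core motif (on the opposite strand, at -193), found in 16.3% of windows, and the Fads2 window 1 GC box (at -186), found in 35.7%. Of the 2 windows of Elovl2, 1 held 5 GC boxes and the other 0 of the motifs, and their GC content was 84.7% and 76.7%, beside 52.7% for the median window. None of the 5 windows of these 4 members held the D-box, present in 2.32% of windows, or the sterol response element, present in 1.24%. A match of letters is a description of the window and not a measured site.

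Elovl3 (ENSMUSG00000038754) was among the most disome-rich messengers at the start of the light phase and a modest one at the start of the dark phase. It had 2632 and 2622 RPKM in the ZT0 libraries, 1669 and 1949 RPKM in those of ZT2, and 68.3 and 70.5 RPKM in those of ZT12. The libraries of the 3 time points did not overlap, and at every time the replicates lay close together. The means were 2627 RPKM ± 7.08 at ZT0, 1809 RPKM ± 198.4 at ZT2 and 69.4 RPKM ± 1.60 at ZT12 (SD, n = 2 each), so that ZT12 was 37.9-fold below ZT0 and 26.1-fold below ZT2, and ZT2 was 1.45-fold below ZT0. By RPKM, Elovl3 stood in place 57 of 8941 genes in both ZT0 libraries, in places 85 and 68 at ZT2, and in places 1243 and 1215 at ZT12. In reads this was 15080 and 16435 at ZT0 against 727 and 708 at ZT12, from deeper libraries. Its share of reads in ZT0 replicate 1 was 0.210% (95% exact Clopper-Pearson interval 0.206 to 0.213), and in ZT12 replicate 1 it was 0.00590% (0.00548 to 0.00634). These intervals cover counting error only, since PCR copies were not told apart.

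**Figure D1:**
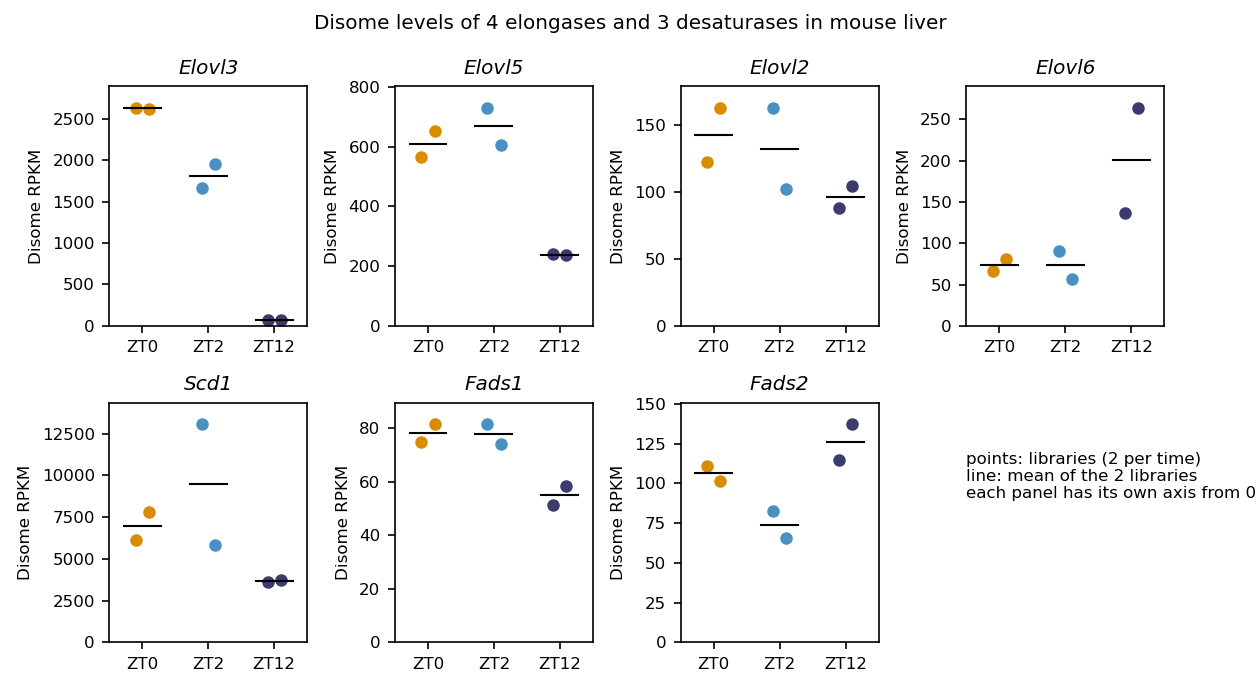
Disome RPKM (vertical axes, each from 0) of the 7 members at ZT0, ZT2 and ZT12 (horizontal axes), with points for single libraries and lines for the mean of the 2 libraries. Mean RPKM at ZT0 and ZT12 is 2627 and 69.4 for Elovl3 and 609 and 239 for Elovl5, and Elovl6 is highest at ZT12, where its libraries lie at 136.5 and 263.8 RPKM.

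Elovl5 (ENSMUSG00000032349), which lengthens polyunsaturated chains of intermediate length, was the one tested member that passed, and it fell towards ZT12. The test was limma, a linear model with variances moderated across genes, on log2(RPKM + 1), with p-values adjusted over all tested genes. It had 565.0 and 652.9 RPKM in the ZT0 libraries, 730.0 and 605.2 RPKM in those of ZT2, and 241.5 and 236.1 RPKM in those of ZT12. Both ZT12 libraries lay below all 4 others, while the ZT0 and ZT2 libraries overlapped. The mean fell 2.55-fold from ZT0 to ZT12 (log2 difference -1.34 ± 0.17 SE, limma adjusted p = 0.021), with 2 of 2 libraries lower. It fell 2.80-fold from ZT2 to ZT12 (log2 difference -1.47 ± 0.17 SE, limma adjusted p = 0.013). The ZT0 call was lost without ZT0 replicate 1 (limma adjusted p = 0.15), ZT0 replicate 2 (0.24), ZT12 replicate 1 (0.12), ZT12 replicate 2 (0.20) or the variance trend (0.079). The call against ZT2 was lost without ZT12 replicate 1 (0.066) or ZT12 replicate 2 (0.13). Over all 15 alternatives the adjusted p ran from 0.0012 to 0.24 against ZT0 and from 0.00056 to 0.13 against ZT2.

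Elovl6 (ENSMUSG00000041220) had its highest values at ZT12, opposite to Elovl3 and Elovl5, but did not pass the test. It had 66.4 and 81.5 RPKM in the ZT0 libraries, 90.4 and 56.4 RPKM in those of ZT2, and 136.5 and 263.8 RPKM in those of ZT12. Both ZT12 libraries lay above all 4 others, and they differed 1.93-fold from each other, a replicate gap reached by 6.21% of tested genes at ZT12. Among the 914 genes within 2-fold of its mean level, 2.95% reached that gap. The log2 difference was 1.36 against ZT0 (95% interval 0.53 to 2.18, limma adjusted p = 0.15) and 1.40 against ZT2 (0.58 to 2.22, limma adjusted p = 0.0997). Without ZT12 replicate 2 these differences were 0.88 and 0.93, and without ZT12 replicate 1 they were 1.83 and 1.87. With voom, which weights log2 counts by their precision, run on the recovered reads, it passed both (limma adjusted p = 0.033 and 0.024), and it passed against ZT2 without ZT2 replicate 1 (0.043). Over all 15 alternatives the adjusted p ran from 0.033 to 0.64 against ZT0 and from 0.024 to 0.42 against ZT2.

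Elovl2 (ENSMUSG00000021364), which lengthens the longest polyunsaturated chains on the way to docosahexaenoic acid, had 122.2 and 162.4 RPKM in the ZT0 libraries, 162.0 and 102.0 RPKM in those of ZT2, and 88.0 and 103.9 RPKM in those of ZT12. The ZT12 libraries were below both ZT0 libraries and overlapped those of ZT2. The log2 difference from ZT0 to ZT12 was -0.55 (95% interval -1.17 to 0.06, limma adjusted p = 0.39), which did not pass the test. It was -0.35 without ZT0 replicate 2 and -0.76 without ZT0 replicate 1. From ZT2 to ZT12 it was -0.42 (-1.04 to 0.19, limma adjusted p = 0.43), with -0.09 when ZT2 replicate 1 was left out and -0.75 when ZT2 replicate 2 was.

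Among the elongases, the gene with the largest share of the disome signal was Elovl3 at ZT0 and ZT2 and, on the mean, Elovl5 at ZT12. The RPKM of the 4 genes summed to 3453 ± 94.2 at ZT0, 2682 ± 43.7 at ZT2 and 604.4 ± 99.1 at ZT12 (SD, n = 2 each). Elovl3 held 76.1% ± 2.28 of that sum at ZT0, 67.4% ± 6.30 at ZT2 and 11.6% ± 1.64 at ZT12 (SD, n = 2 each). Elovl6 held 2.14% ± 0.249 at ZT0, 2.74% ± 0.942 in the ZT2 libraries and 32.3% ± 9.60 at ZT12. Its libraries at ZT12 lay above all others. Elovl5 held 17.6% ± 1.32, 24.9% ± 3.69 and 40.1% ± 7.21 in the same order, a larger share at ZT12 although its own level was lower. Leaving Elovl3 out, the other elongases summed to 825.2 RPKM ± 101.3 at ZT0, 873.0 RPKM ± 154.7 at ZT2 and 535.0 RPKM ± 97.5 at ZT12. Elovl3, the gene chosen for its low ZT12 level, thus made up most of the difference in the summed signal. The shares of the other elongases rise when Elovl3 falls, even at unchanged levels. Their larger shares at ZT12 are thus not a separate result. The mean level of Elovl6 itself was 2.71-fold higher at ZT12 than at ZT0, which did not pass the test.

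Ratios within a library do not depend on how libraries were scaled to each other. The ratio of Elovl6 to Elovl5 was 0.118 and 0.125 in the ZT0 libraries, 0.124 and 0.0931 in those of ZT2, and 0.565 and 1.12 in those of ZT12. In ZT12 replicate 2 Elovl6 stood above Elovl5, and in the other 5 libraries it stood below. Elovl3 was 4.66 and 4.02 times Elovl5 at ZT0, 2.29 and 3.22 times at ZT2, and 0.283 and 0.299 times at ZT12. Their order was thus reversed at the start of the dark phase, the time for whose low level Elovl3 was chosen. The elongases of the polyunsaturated route kept their order, with Elovl5 at 4.63 and 4.02 times Elovl2 for ZT0, 4.51 and 5.93 times for ZT2, and 2.74 and 2.27 times for ZT12. That ratio was lowest in the ZT12 libraries, which did not overlap the others. The ratios of this paragraph were not tested.

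**Figure D2:**
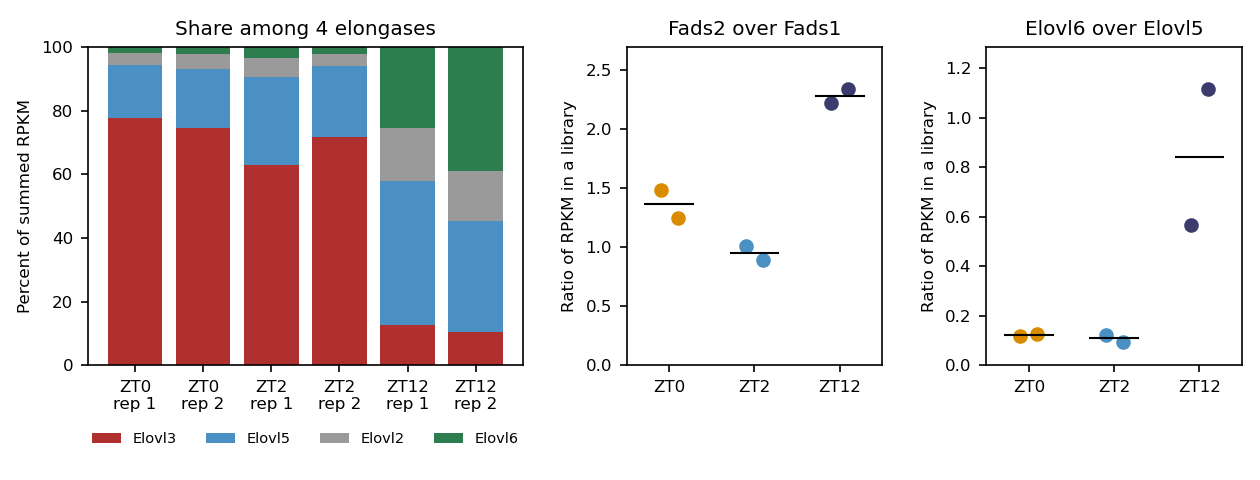
Left, percent of the summed RPKM of the 4 elongases held by each gene (vertical axis, 0 to 100) in each of the 6 libraries, as stacked bars. Middle and right, ratios of Fads2 to Fads1 and of Elovl6 to Elovl5 within a library (vertical axes from 0), with points for libraries and lines for means. Elovl3 fills 76.1% of the sum at ZT0 and 11.6% at ZT12, and both ratios are highest in the ZT12 libraries.

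Scd1 (ENSMUSG00000037071), stearoyl-CoA desaturase, carried by far the most disome signal of the group, between place 12 and place 39 of all genes in every library. It had 6128 and 7833 RPKM in the ZT0 libraries, 13060 and 5854 RPKM in those of ZT2, and 3595 and 3735 RPKM in those of ZT12. Both ZT12 libraries lay below all 4 others, and the ZT2 replicates differed 2.23-fold, a gap reached by 10.4% of tested genes at ZT2. Among the 34 genes within 2-fold of its mean level, 5.88% reached that gap. The log2 difference from ZT0 to ZT12 was -0.92 (95% interval -1.75 to -0.08, limma adjusted p = 0.30) and from ZT2 to ZT12 it was -1.25 (-2.09 to -0.42, limma adjusted p = 0.13), so neither passed. The ZT0 comparison passed with the ZT0 and ZT12 libraries alone (limma adjusted p = 0.044). Leaving out either ZT2 replicate nearly repeats that fit, since a lone library adds no replicate spread, so it is not a separate result. Against ZT2, leaving out ZT2 replicate 1 gave a log2 difference of -0.68. Leaving out ZT2 replicate 2 gave -1.83, which passed (limma adjusted p = 0.016), as did voom on all libraries (0.027). Over all 15 alternatives the adjusted p ran from 0.043 to 0.91 against ZT0 and from 0.016 to 0.43 against ZT2. Its mean was 9457 RPKM at ZT2 and 6980 RPKM at ZT0, a log2 difference of 0.34 (-0.50 to 1.17, limma adjusted p = 0.70) that became -0.24 without ZT2 replicate 1.

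Scd1 exceeded the other desaturases in every library, with 95.0% to 98.8% of the summed RPKM of the 3 genes. Set against Elovl3, it was 2.33 and 2.99 times as high at ZT0, 7.83 and 3.00 times at ZT2, and 52.7 and 53.0 times at ZT12. Set against Elovl6, the neighbouring step in making oleate, it was 92.2 and 96.2 times as high at ZT0, 144.5 and 103.9 times at ZT2, and 26.3 and 14.2 times at ZT12. Scd1 to Elovl6 was thus lowest at ZT12, with no overlap between ZT12 and the other libraries. Scd1 to Elovl3 was highest there, also without overlap. Since Elovl3 was chosen for its low ZT12 level, the separation of Scd1 to Elovl3 is not a separate result. Neither ratio was tested.

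Fads1 (ENSMUSG00000010663) and Fads2 (ENSMUSG00000024665), neighbours on chromosome 19, work on the same polyunsaturated route, and neither passed the test in any of the 3 comparisons. Fads1 had 74.8 and 81.4 RPKM in the ZT0 libraries, 81.3 and 73.9 RPKM in those of ZT2, and 51.4 and 58.5 RPKM in those of ZT12, with both ZT12 libraries below the rest. Its log2 difference was -0.50 against ZT0 (95% interval -0.91 to -0.09, limma adjusted p = 0.26) and -0.49 against ZT2 (-0.90 to -0.08, limma adjusted p = 0.20). Fads2, which catalyses the first desaturation of the route, had 111.1 and 101.3 RPKM in the ZT0 libraries, 82.3 and 65.7 RPKM in those of ZT2, and 114.3 and 137.1 RPKM in those of ZT12. The libraries of the 3 time points did not overlap, with ZT2 lowest and ZT12 highest. Between single pairs of times, 45.9% to 54.4% of tested genes did not overlap either. The share over all 3 pairs together was not counted. The log2 difference of Fads2 was 0.76 from ZT2 to ZT12 (0.31 to 1.21, limma adjusted p = 0.10), 0.24 from ZT0 to ZT12 (-0.21 to 0.69, limma adjusted p = 0.62) and -0.52 from ZT0 to ZT2 (-0.97 to -0.07, limma adjusted p = 0.32). Without ZT12 replicate 1 the difference from ZT0 to ZT12 was 0.37, and without ZT12 replicate 2 it was 0.11. None of these passed, although the difference from ZT2 to ZT12 passed with voom (adjusted p = 0.043) and without ZT2 replicate 1 (limma adjusted p = 0.043), within a range of 0.043 to 0.43 over all 15 alternatives.

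The ratio of Fads2 to Fads1 differed between the time points in the libraries at hand. It was 1.49 and 1.24 in the ZT0 libraries, 1.01 and 0.889 in those of ZT2, and 2.22 and 2.34 in those of ZT12, with no overlap between any pair of times. The 2.28 ± 0.085 at ZT12 compares with 1.37 ± 0.170 at ZT0 and 0.951 ± 0.087 at ZT2 (SD, n = 2 each). This ratio was not tested, and the share of gene pairs that separate as well was not counted.

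Read as a group, 1 of the 6 members other than Elovl3 was called lower at ZT12 than at ZT0 (Elovl5) and 0 higher, where limma called 0.946% of 8355 tested genes, 0.551% lower and 0.395% higher. The same gene was called lower than at ZT2, where 2.06% of tested genes were called, 0.993% lower and 1.07% higher. Both comparisons use the same ZT12 libraries. From ZT0 to ZT2 limma called 0 of the 6, against 0.0239% of tested genes, with 1 of the 6 (Fads2) under an unadjusted p of 0.05 in limma and 0 called by voom. Before adjustment, limma gave a p under 0.05 for 4 of the 6 from ZT0 to ZT12 (14.5% of all tested genes) and for 5 of the 6 from ZT2 to ZT12 (19.2% of all). Libraries of ZT12 and ZT0 did not overlap for 6 of the 6, as for 54.4% of tested genes (26.6% higher and 27.8% lower at ZT12). Of the 6, Elovl6 and Fads2 were higher at ZT12 and 4 lower. The same held for 5 of the 6 between ZT12 and ZT2, against 45.9% (23.6% higher and 22.3% lower at ZT12), with Elovl2 the exception. Between ZT2 and ZT0 it held for 1 of the 6 (Fads2, lower at ZT2), against 46.4% (21.5% higher and 24.9% lower at ZT2). The median log2 difference of the 6 was -0.53 from ZT0 to ZT12, beside -0.01 over all tested genes, and -0.46 from ZT2 to ZT12, beside 0.03. From ZT0 to ZT2 it was -0.03, beside -0.04. With every library scaled to the same summed RPKM, the medians of the 6 and of all genes were -0.45 and 0.06 from ZT0 to ZT12, -0.30 and 0.17 from ZT2 to ZT12, and -0.11 and -0.11 from ZT0 to ZT2.

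**Figure D3:**
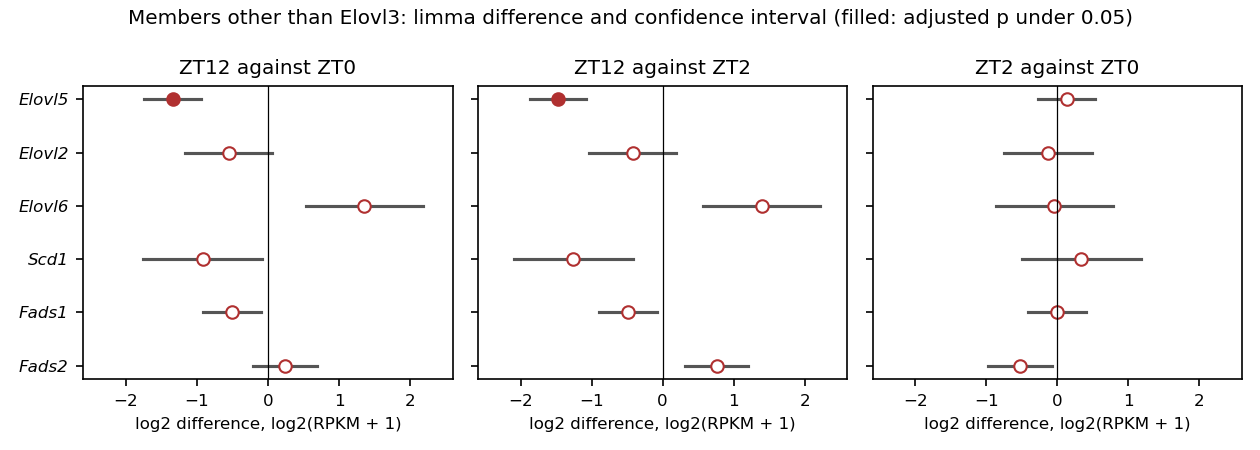
Log2 differences of the 6 members other than Elovl3 in limma on log2(RPKM + 1) (horizontal axes, first time minus second), with 95% intervals as lines, for the 3 comparisons. Filled points have an adjusted p under 0.05, which is Elovl5 at -1.34 and -1.47. Elovl6 lies to the right of 0 in both comparisons with ZT12.

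From ZT0 to ZT2 none of the 6 passed. Beside a mean 1.45-fold lower for Elovl3, the log2 differences and 95% intervals were 0.13 (-0.27 to 0.53) for Elovl5, -0.13 (-0.75 to 0.48) for Elovl2, -0.04 (-0.86 to 0.78) for Elovl6 and -0.01 (-0.42 to 0.40) for Fads1, with limma adjusted p from 0.76 to 0.99. The sign of each of these turned with 1 library left out: without ZT2 replicate 1 the differences were -0.01 for Elovl5, -0.46 for Elovl2, -0.38 for Elovl6 and -0.08 for Fads1. Without ZT2 replicate 2 they were 0.26, 0.20, 0.29 and 0.06 in the same order. The widest of these intervals belonged to Elovl6 and Scd1 (-0.50 to 1.17). Differences within such an interval are compatible with these libraries, so a missing call does not show that a level was unchanged.

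Placed among all 8355 tested genes by their log2 difference from ZT0 to ZT12, Elovl3 was the lowest at -5.22 (place 1), the value it was chosen for. Elovl5 stood in place 123 from the lowest and Scd1 in place 346. By level, Elovl5 ranked between place 178 and place 241 of 8941 genes at ZT0 and ZT2 and in places 486 and 510 at ZT12, while Elovl6 ranked between 1060 and 1441 at ZT0 and ZT2 and in places 768 and 456 at ZT12. Fads1, the lowest by level at ZT12, was in places 1493 and 1365 there. Elovl2 and Fads1 stood at the 12.7th and 14.7th percentile, inside the bulk of genes. Fads2 was at the 71.5th percentile and Elovl6 in place 72 from the highest.

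**Figure D4:**
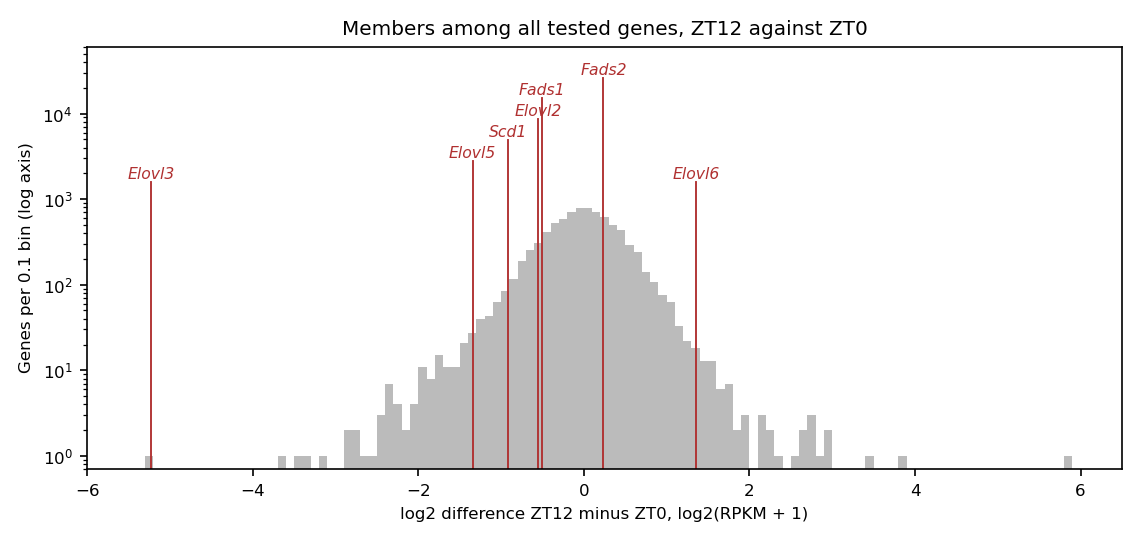
Number of tested genes per bin of 0.1 (vertical axis, log scale) against the log2 difference ZT12 minus ZT0 on the log2(RPKM + 1) scale, as grey bars, with red lines at the members. Elovl3 lies at -5.22, beyond the other 6 members, which lie between -1.34 and 1.36.

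The order of levels within the group was not the same in the ZT12 libraries as in the others. The lower place of Elovl3 at ZT12 follows from the low level it was chosen for. Elovl6 stood higher at ZT12 but did not pass the test, and the order itself was not tested. In all 4 libraries of ZT0 and ZT2 it began with Scd1, Elovl3, Elovl5 and Elovl2. Behind them Fads1, Fads2 and Elovl6 changed places between libraries and did not differ beyond the replicate spread at ZT2. At ZT0 the libraries of Fads2 (111.1 and 101.3 RPKM) lay above those of Fads1 (74.8 and 81.4 RPKM) and Elovl6 (66.4 and 81.5 RPKM). At ZT12 Scd1 still led, Elovl5 and Elovl6 followed in an order that differed between the replicates, and Fads2, Elovl2, Elovl3 and Fads1 came next in both libraries. Elovl6 overlapped both Elovl5 and Fads2 there. The libraries of Fads2 and Elovl2 did not overlap at ZT12 (114.3 and 137.1 against 88.0 and 103.9 RPKM), nor did those of Elovl3 and Fads1.

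Profiles of log2(RPKM + 1), each centred on its own mean over the 6 libraries, were compared by Euclidean distance, which counts the size of a change as well as its course. The gene nearest to Elovl3 was ENSMUSG00000058672, at a distance of 1.68, with 213.6 and 236.8 RPKM in the ZT0 libraries, 266.7 and 197.2 RPKM in those of ZT2, and 18.8 and 15.5 RPKM in those of ZT12. The second was ENSMUSG00000037379, at 2.3, with 13.6 and 15.6 RPKM in the ZT0 libraries, 10.5 and 7.73 RPKM in those of ZT2, and 1.00 and 0.0818 RPKM in those of ZT12. The identifiers of these genes were not paired with symbols in the tables used here. Among 8354 genes the nearest member was Elovl5, in place 69 at a distance of 4.16, then Scd1 in place 205 at 4.66. Elovl6 was in place 8277, at 7.38, near the far end. Among pairs of members, Elovl2 and Fads1 were closest, at 0.44, followed by Elovl5 and Scd1 at 0.77. As a description over 6 libraries, which share their scaling, Pearson's r with Elovl3 was 0.97 for Elovl5, 0.95 for Fads1, 0.77 for Scd1, 0.69 for Elovl2, -0.63 for Fads2 and -0.88 for Elovl6. The profile of Elovl3 is dominated by the low ZT12 level it was chosen for. Distances and r with it thus largely restate each gene's own ZT12 difference and are not a separate result. Pearson's r does not count the size of a change, and Fads1 did not pass the test.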

How the data were processed

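Disome footprints were measured in 6 mouse liver libraries, 2 at each of ZT0, ZT2 and ZT12. The authors deposited 1 RPKM table per library with 8941 Ensembl identifiers. The submitters' processing notes name edgeR, StringTie, STAR, Bowtie2 2.3.0, cutadapt and CASAVA 1.82, and the builds mm10 and GRCm38.p2. What each was used for, the annotation and the gene filter were not given in the sources used here.

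Whole reads and coding lengths were recovered from the steps of the RPKM values, to a relative tolerance of 5e-12, for 8941 genes. A common factor was corrected in 74 genes, and 95.16% of lengths were multiples of 3, as for coding sequence. Library constants followed the upper quartile of reads per gene. Depth was 6346387 to 12322651 reads per library.

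limma 3.58.1 in R 4.3.3 was fitted to log2(RPKM + 1) of the 8355 genes whose mean reached 1 RPKM, with 1 mean per time point, all 6 libraries, 3 residual degrees of freedom and a variance trend. This scale understates changes of low genes. The Benjamini-Hochberg adjustment ran over the whole table, and the threshold was 0.05. Log2 differences are on that scale, and folds are ratios of mean RPKM. Other tools were Python 3.11.15 and SciPy 1.17.1. The recovery of reads, up to a common factor per gene, and the test were tried on simulated data. The simulated libraries all had the same replicate spread, although the ZT2 replicates lay farther apart here. The step that recovers coding lengths was not simulated. Same-numbered libraries did not deviate together (correlations -0.08, -0.02 and 0.02), so the replicate number was not treated as a pairing.

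The members, the lists and the motifs were chosen with earlier results of these data known. All 7 members are named, with the 5 genes nearest to Elovl3 by profile, of which 2 identifiers are printed. The reference gene table has no Ensembl identifiers (0 of 49997 genes), so 0 identifiers were matched through it, and the listed related genes, regulators, clock genes and cell type markers were not tested. Members carry the symbols given with their identifiers, and RefSeq loci and promoter windows were matched to those symbols (GRCm38.p6).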

Additional observations from a re-analysis of the deposited data

How the results depend on the processing

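Elovl5 kept its direction against ZT0 and against ZT2 in every alternative run. It was the only tested member called in the main fit, so only its 15 alternatives in each of these comparisons could lose a call. The 15 alternatives are not independent runs. For a comparison, leaving out a library of the third time nearly repeats the fit on the 4 libraries compared. Of 270 values for the 6 members other than Elovl3 under alternatives, 253 stayed on their side of the threshold, 10 moved past it, 7 lost it and 0 reversed a call. For ZT12 against ZT0, ZT12 against ZT2 and ZT2 against ZT0 in turn, the 79, 172 and 2 genes called became 32, 80 and 1 without the variance trend, 282, 39 and 1 on the 4 libraries compared, and 283, 356 and 9 with voom on the recovered reads. With the replicate block they were 51, 113 and 2, and Elovl5 remained the 1 member called in the first and second. ZT2 against ZT0 had 6 genes with a pseudocount of 0.1. Of the 6 members, 0 were called for ZT12 against ZT0 without the variance trend, 2 on the 4 libraries compared and 2 with voom, and voom called 4 for ZT12 against ZT2. Without each library in turn, the counts were 3 to 283, 5 to 597 and 0 to 248 genes, and 0 to 2, 0 to 3 and 0 members; a group left with 1 library is assumed to share the spread of the rest. For ZT12 against ZT0 the count was 5 and 3 without ZT0 replicate 1 and 2, 283 and 282 without ZT2 replicate 1 and 2, and 8 and 5 without ZT12 replicate 1 and 2. For ZT12 against ZT2 it was 39 and 39, 597 and 393, and 46 and 5 in the same order, and for ZT2 against ZT0 it was 0 and 0, 248 and 2, and 1 and 1. Scaling every library to the same summed RPKM moved the median of all genes to 0.17 for ZT12 against ZT2 and -0.11 for ZT2 against ZT0, and turned the split of 89 higher and 83 lower into 132 and 61. The ZT0 over ZT12 ratio of Elovl3 was 35.8 with that scaling and 35.7 with quantile normalization. Of the 5 genes nearest to Elovl3, 3 were kept with a pseudocount of 0.1 and 3 with 5. The cause was not tested.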
